A study of Homo sapiens with 8 samples.

Results

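The 4 ID genes (ID1, ID2, ID3 and ID4), the inhibitory SMAD genes SMAD6 and SMAD7, the pseudoreceptor gene BAMBI and the ligand genes BMP2, BMP4 and BMP7 were followed in MP38 cells, a BAP1-mutant uveal melanoma (UM) line, under 3 epigenetic drugs. These 10 genes were taken by symbol from a table of 35238 symbols. All 10 passed the filter on low counts, which left 15085 genes for testing, but BMP2 passed it through its drug-treated libraries, as its control libraries held only 2 and 9 counts. The drugs were 2 inhibitors of histone deacetylases (HDAC), romidepsin at 40 nM and quisinostat at 40 nM, and the BET inhibitor mivebresib at 1200 nM. BET proteins bind acetylated histones through bromodomains, which mivebresib occupies. Treatment lasted 24 h, with 0.1% DMSO as the control. In the paper's viability assays, MP38 cells were most sensitive to romidepsin, then to quisinostat and then to mivebresib. The concentrations used here were not matched for this potency, so equal concentrations of the HDAC inhibitors are not equal effective doses. There were 2 libraries a group, prepared from duplicate wells of 1 cell line. P-values therefore measure the spread between wells.

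BMP ligands bind pairs of serine/threonine kinase receptors, which phosphorylate SMAD1, SMAD5 and SMAD9, and these enter the nucleus with SMAD4 and bind target genes. ID1, ID2, ID3, SMAD6, SMAD7 and BAMBI are classical targets of this signal, and the last 3 act back on it as inhibitors. ID proteins are helix-loop-helix (HLH) proteins without a DNA-binding region, which capture E proteins such as TCF3 and TCF12 and keep them from DNA. In the melanocyte lineage, ID proteins are best known as factors that hold back differentiation.

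Bulk mRNA was sequenced as paired-end reads, and the authors deposited reads counted per gene symbol without normalization. Total counts ran from 28483235 to 29359024 per library. Levels below are CPM after TMM scaling (counts scaled to a common library size), fold changes are log2 ratios with their standard error (SE), and adjusted p-values come from the quasi-likelihood test of edgeR, corrected over the 15085 genes by the Benjamini-Hochberg method. The 2 control libraries served all 3 drugs, so the 3 comparisons are not independent. The control libraries differed from each other more than the pair of any drug group did, with a chi-square per degree of freedom of 58.1 against 9.52 to 9.79. The model shared 1 estimate of the spread over the 4 groups. It can therefore understate the spread against control and overstate it between drugs. Fitted on only the 4 libraries compared, romidepsin had 1427 genes higher and 1116 lower than control, against 2293 and 2377 with all 8. For quisinostat over romidepsin these counts were 3751 and 3545, against 3167 and 2200. Summed over 7 melanocytic markers, levels ran from 4190 to 5450 CPM in control and from 3560 to 5020 CPM across the drug groups, although DCT was at 5 counts or fewer in every library. Most of this sum was TYRP1 (2748 to 4115 CPM). Among the other markers of the lineage, MITF, SOX10 and MLANA had lower means with every drug, whereas PMEL and TYR did not. MITF, its master regulator, averaged 349.9 ± 0.887 CPM (SD, n = 2) in control, 300.8 ± 10.5 with romidepsin, 133.1 ± 0.844 with quisinostat and 126.4 ± 3.14 with mivebresib. SOX10 averaged 209.1 ± 10.3, 159.2 ± 14.1, 110.2 ± 5.15 and 55.0 ± 3.12 CPM, and MLANA 205.8 ± 19.2, 186.6 ± 14.3, 99.5 ± 1.34 and 81.8 ± 2.28 CPM, in the same order. PMEL averaged 504.5 ± 119, 556.3 ± 51.7, 500.5 ± 42.0 and 353.4 ± 5.64 CPM, and TYR 2.60 ± 1.175, 3.13 ± 0.249, 3.22 ± 0.413 and 1.58 ± 0.0957 CPM. The MLANA libraries of romidepsin (176.5 and 196.7 CPM) overlapped the controls (219.4 and 192.3 CPM). For PMEL and TYR, both libraries lay below the controls only with mivebresib. Markers of other cell types were low: 6 fibroblast markers summed to at most 10.9 CPM, 5 endothelial markers to at most 5.86 CPM, 5 immune markers to at most 0.665 CPM and 3 epithelial markers to at most 0.285 CPM. The fibroblast sum was 1.98 to 2.48 CPM in control, 4.23 to 5.46 with romidepsin, 8.44 to 10.9 with quisinostat and 1.28 to 1.76 with mivebresib, and the endothelial sum 0.602 to 0.913, 3.13 to 3.71, 5.16 to 5.86 and 1.17 to 1.40. With quisinostat these sums came mainly from COL1A1 and KDR, while the endothelial gene CDH5 was at 0 in every library. Their part in the results below was not tested.

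Compared per kilobase of exon, the 10 genes fell into a high and a low group in every condition. In control cells ID3 was the most abundant at 73.0 ± 11.5 CPM per kb (SD, n = 2), and BAMBI (37.0 ± 1.34), ID2 (34.7 ± 4.39) and ID1 (34.3 ± 5.05) followed with overlapping libraries. SMAD6 stood at 3.71 ± 0.107 CPM per kb and SMAD7 at 3.20 ± 0.0975. BMP4 at 1.93 ± 0.164 and ID4 at 1.81 ± 0.471 overlapped, and BMP7 (0.286 ± 0.025) and BMP2 (0.0555 ± 0.0506) were lowest. Only with mivebresib did another gene than ID3 lead on the mean: ID1 reached 53.6 ± 2.30 CPM per kb, ID2 50.3 ± 0.0651 and ID3 45.5 ± 5.03, with both ID1 libraries above both of the others. BMP4 was the highest of the 3 ligand genes in control and with romidepsin (1.18 ± 0.0812, against 0.638 ± 0.0481 for BMP7), whereas BMP7 was the highest with quisinostat (2.07 ± 0.183, against 0.870 ± 0.178 for BMP4) and with mivebresib (0.615 ± 0.116, against 0.264 ± 0.0717).

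**Figure D1:**
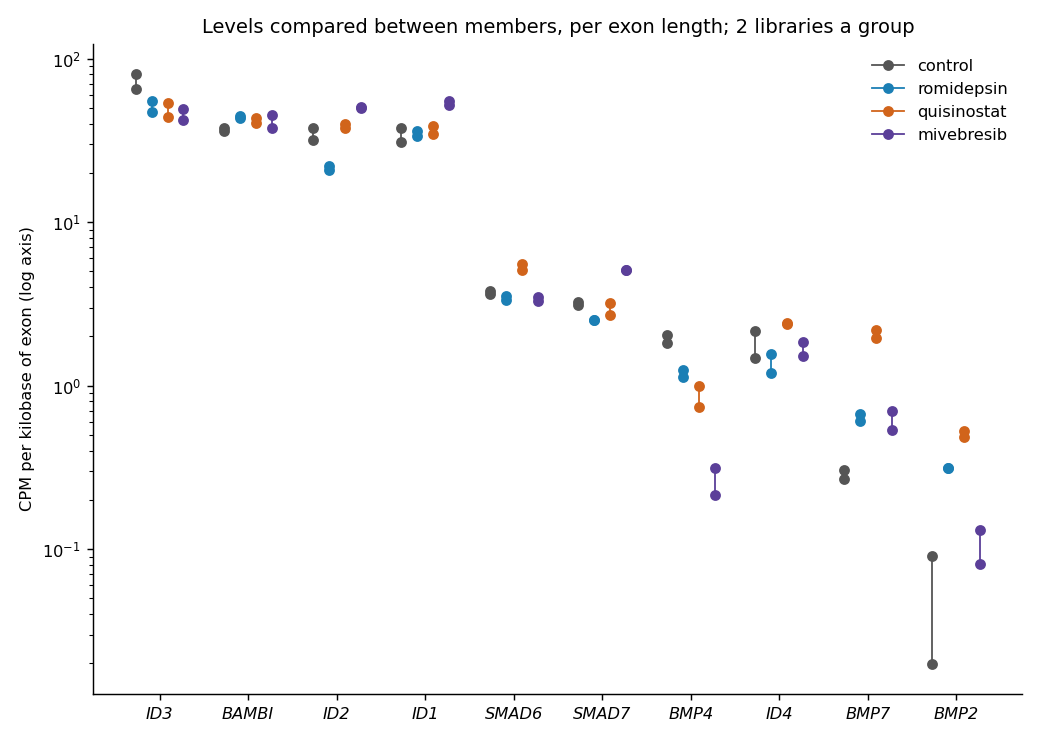
CPM per kilobase of exon (log axis) for each of the 10 genes, ordered by their control mean; points are the 2 libraries of a group, joined by a line, and colours are the 4 groups. The ID genes other than ID4 and BAMBI lie above 20 in every library, and the order of BMP4 and BMP7 turns between control and quisinostat.

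Against control, romidepsin changed 6 of the 10 genes (2 higher, 4 lower), quisinostat 5 (3 higher, 2 lower) and mivebresib 6 (4 higher, 2 lower) at an adjusted p below 0.05. Of all tested genes, 15.2% were higher and 15.8% lower with romidepsin, 28.0% and 25.1% with quisinostat, and 22.2% and 24.1% with mivebresib, so changes at this threshold were common. The median log2 fold change of the 10 genes was -0.22 with romidepsin, 0.17 with quisinostat and 0.35 with mivebresib, against -0.01 with romidepsin and 0.01 with mivebresib over all tested genes. With a log2 fold change beyond 1.5 required as well, only ligand genes remained: BMP2 with romidepsin, BMP2 and BMP7 with quisinostat, and BMP4 with mivebresib. At that threshold 4.08%, 12.2% and 8.32% of all genes were called, in the same order. With the HDAC inhibitors most of these calls were rises, 569 higher and 47 lower with romidepsin and 1689 and 156 with quisinostat. With mivebresib 598 were higher and 657 lower. The romidepsin count was the least stable, falling from 6 to 3 genes without control replicate 1, romidepsin replicate 1 or romidepsin replicate 2.

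**Figure D2:**
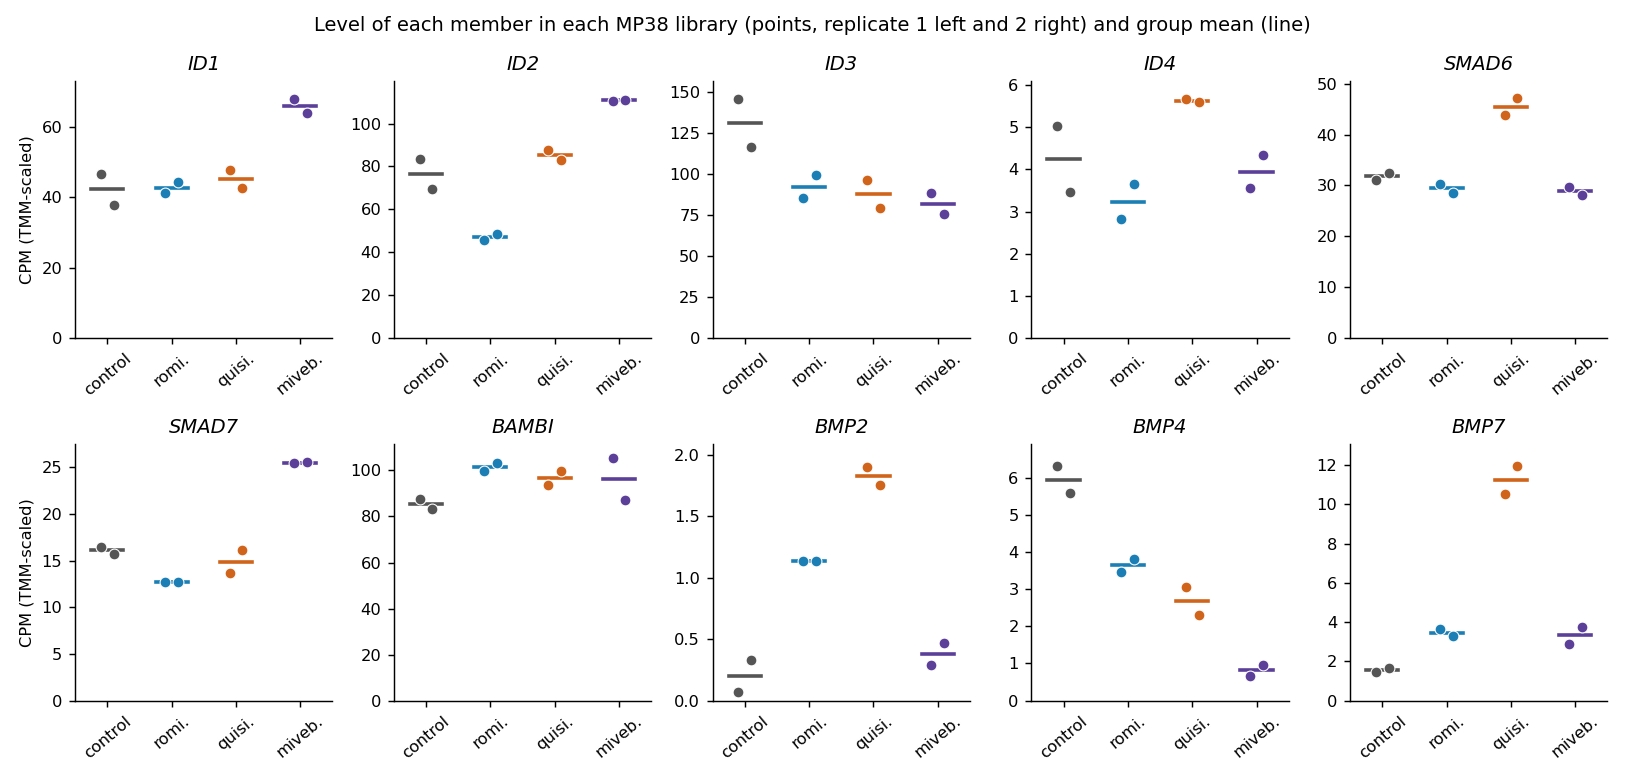
CPM of each gene on its own linear axis from 0, with the 2 libraries of each group as points (replicate 1 on the left) and the group mean as a line. BMP4 stands below control in all 6 drug-treated libraries and BMP7 above it, and control replicate 1 is the higher control library for each of the 4 ID genes.

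The ligand genes changed the most, and in opposite directions. BMP4 fell with every drug, BMP7 rose with every drug, and BMP2 rose with the 2 HDAC inhibitors. BMP4 and BMP2 encode close relatives that bind the same receptors, while BMP7 belongs to another branch of the family.

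BMP4 lies on chromosome 14 (53949736 to 53958761, minus strand, GRCh38). Its level was 6.30 and 5.59 CPM in the control libraries, 3.47 and 3.82 with romidepsin, 3.07 and 2.29 with quisinostat, and 0.658 and 0.971 with mivebresib. No drug-treated library reached the lower control library. The fall with mivebresib was 7.26-fold, a log2 fold change of -2.86 (SE 0.24, adjusted p = 3.87e-05). With quisinostat it was 2.22-fold (log2 fold change -1.15, SE 0.20, adjusted p = 0.00148) and with romidepsin 1.63-fold (log2 fold change -0.71, SE 0.19, adjusted p = 0.0256). The romidepsin call was lost without control replicate 1 (-0.59, adjusted p = 0.0798), romidepsin replicate 1 (-0.64, adjusted p = 0.144) or romidepsin replicate 2 (-0.78, adjusted p = 0.0791), each of which leaves 1 library in its group. Mivebresib was also below romidepsin, by a log2 difference of -2.15 (SE 0.25, adjusted p = 0.000187), and below quisinostat, by -1.71 (SE 0.26, adjusted p = 0.000546). Its concentration in nM was far higher than that of either, and the doses were not matched for potency. The 2 HDAC inhibitors were not separated, with a log2 difference of quisinostat over romidepsin of -0.44 (95% interval -0.91 to 0.03).

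The window before the most upstream of 3 RefSeq starts of BMP4 is shown because the gene changed with all 3 drugs and the window holds GGCGCC, a GC-rich element that BMP-specific SMADs are known to bind. It covers the 250 bases before that start (GRCh38.p14, chr14:53955051-53955300, minus strand), and capitals mark the element, 232 to 227 bases before the start.
BMP4: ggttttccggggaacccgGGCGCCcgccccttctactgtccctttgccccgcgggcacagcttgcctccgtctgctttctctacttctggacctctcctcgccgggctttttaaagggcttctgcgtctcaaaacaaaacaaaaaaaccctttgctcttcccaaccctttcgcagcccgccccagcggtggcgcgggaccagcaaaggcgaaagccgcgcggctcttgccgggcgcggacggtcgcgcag
The element reads the same on both strands and was present in 16.4% of 35116 such windows, so its presence is common. The windows before the other BMP4 starts held no match. The window of BAMBI, which did not pass against control with any drug, held 3 matches. No transcript start was measured here, and neither were histone marks.

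BMP7 lies on chromosome 20 (57168748 to 57266629, minus strand). It was measured at 1.45 and 1.64 CPM in control, 3.64 and 3.27 with romidepsin, 10.5 and 11.9 with quisinostat, and 2.89 and 3.78 with mivebresib. Each drug-treated library exceeded both control libraries, and the quisinostat pair stood clear of all others. Quisinostat raised BMP7 7.25-fold (log2 fold change 2.86, SE 0.18, adjusted p = 6.72e-06), romidepsin 2.23-fold (1.16, SE 0.20, adjusted p = 0.0033) and mivebresib 2.15-fold (1.11, SE 0.20, adjusted p = 0.00218). At the same 40 nM, quisinostat exceeded romidepsin by a log2 difference of 1.70 (SE 0.16, adjusted p = 0.000204). Mivebresib lay below quisinostat by -1.75 (SE 0.16, adjusted p = 4.07e-05) and was not separated from romidepsin (-0.05, 95% interval -0.46 to 0.36).

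BMP2, also on chromosome 20 (6767664 to 6780280, plus strand), was the least abundant of the 10 genes. Its counts were 2 and 9 in control, 33 and 33 with romidepsin, 60 and 55 with quisinostat, and 8 and 13 with mivebresib. Every HDAC inhibitor library was above every control and mivebresib library. The rise was 5.63-fold with romidepsin (log2 fold change 2.49, SE 0.49, adjusted p = 0.00629) and 9.04-fold with quisinostat (3.18, SE 0.46, adjusted p = 0.000569). These sizes rest on very few control reads: without control replicate 1 they were 1.80 and 2.45, and without control replicate 2 they were 3.92 and 4.60, on the log2 scale. Mivebresib did not pass (0.93, SE 0.59, adjusted p = 0.234), but passed without control replicate 2 (2.35, adjusted p = 0.0276). It stood below quisinostat by a log2 difference of -2.25 (SE 0.41, adjusted p = 0.00165) and below romidepsin by -1.57 (SE 0.44, adjusted p = 0.017). The call against romidepsin was lost without romidepsin replicate 1 (adjusted p = 0.0623), romidepsin replicate 2 (adjusted p = 0.063) or mivebresib replicate 1 (adjusted p = 0.106). Quisinostat and romidepsin were not separated (0.68, 95% interval -0.10 to 1.47).

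**Figure D3:**
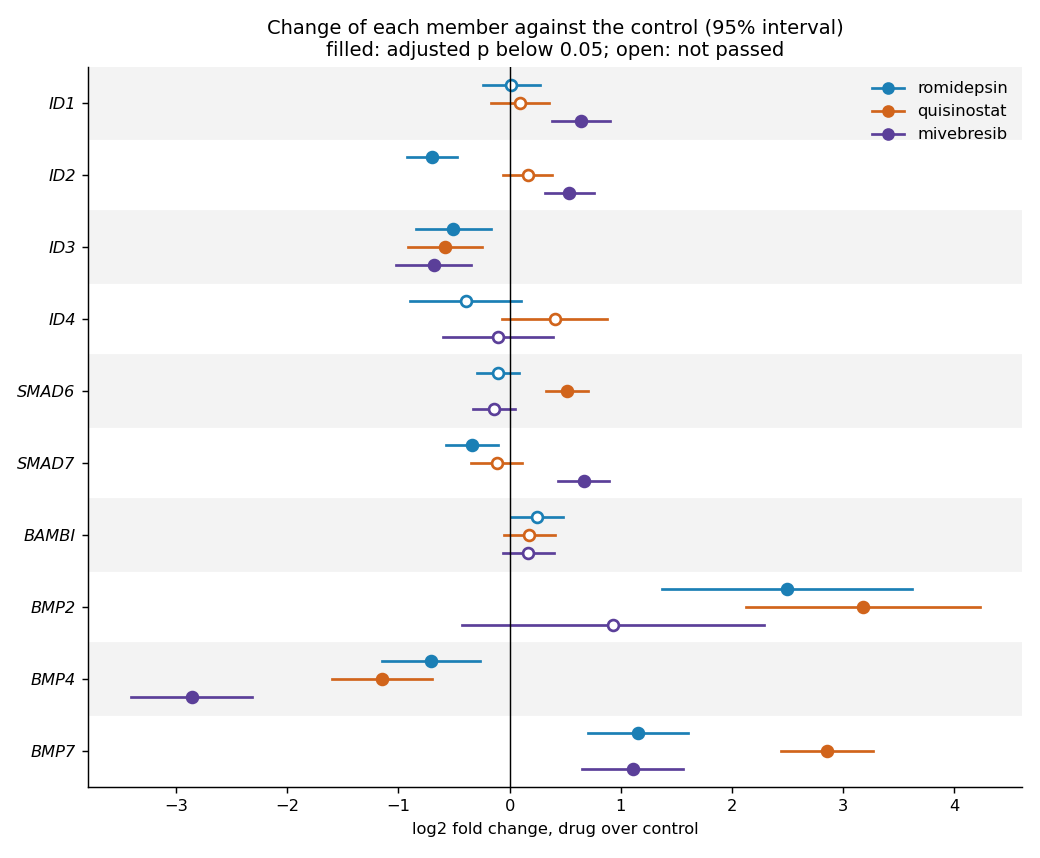
Log2 fold change of each gene over control for romidepsin, quisinostat and mivebresib, with 95% intervals; filled points passed an adjusted p below 0.05. The largest changes are those of the 3 ligand genes, and ID3, BMP4 and BMP7 are filled for all 3 drugs.

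Among the ID genes, the abundant members moved apart. ID3 fell with all 3 drugs, ID1 rose with mivebresib, and ID2 moved in opposite directions with romidepsin and mivebresib. ID4 did not pass against control with any drug.

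ID1 lies on chromosome 20 (31605283 to 31606515, plus strand) and is the member most often used as a readout of BMP signalling. Its level was 46.7 and 37.9 CPM in control, 41.3 and 44.3 with romidepsin, 47.8 and 42.6 with quisinostat, and 68.1 and 64.1 with mivebresib. The mivebresib libraries lay above all 6 others, which overlapped. ID1 rose 1.56-fold with mivebresib (log2 fold change 0.64, SE 0.11, adjusted p = 0.00193). The values for romidepsin (0.02, SE 0.11, adjusted p = 0.925) and quisinostat (0.10, SE 0.11, adjusted p = 0.506) were near 0, and the sign of each turned when control replicate 2 was left out (-0.13 and -0.055). Mivebresib also exceeded romidepsin by a log2 difference of 0.63 (SE 0.11, adjusted p = 0.00201) and quisinostat by 0.55 (SE 0.11, adjusted p = 0.00311).

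The ID1 window is shown for its core promoter elements. It covers the 250 bases before the RefSeq start (GRCh38.p14, chr20:31605039-31605288, plus strand). Capitals mark a CCAAT box on the reverse strand, 84 to 80 bases before the start, and a pair of overlapping TATAAA matches on both strands, 33 to 26 bases before it.
ID1: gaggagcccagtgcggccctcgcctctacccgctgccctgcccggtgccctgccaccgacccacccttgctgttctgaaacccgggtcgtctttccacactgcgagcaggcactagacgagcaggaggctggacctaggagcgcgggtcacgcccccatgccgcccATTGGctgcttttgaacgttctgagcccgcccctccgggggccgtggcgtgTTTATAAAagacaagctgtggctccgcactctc
TATAAA was found, on either strand, in 10.7% of 35116 windows and CCAAT in 32.0%. The window held neither GGCGCC nor the SMAD palindrome GTCTAGAC, which says only that these letters are not in these 250 bases.

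ID2 lies on chromosome 2 (8678845 to 8684453, plus strand). It stood at 83.3 and 69.6 CPM in control, 45.9 and 48.6 with romidepsin, 87.8 and 83.2 with quisinostat, and 110.7 and 110.9 with mivebresib. The romidepsin pair was the lowest and the mivebresib pair the highest, and the control and quisinostat libraries overlapped between them. The difference between the HDAC inhibitors was itself tested: quisinostat exceeded romidepsin 1.81-fold (log2 difference 0.86, SE 0.10, adjusted p = 0.000462). Mivebresib exceeded romidepsin 2.35-fold (1.23, SE 0.10, adjusted p = 2.82e-05). Against control, ID2 changed with romidepsin (-0.70, SE 0.10, adjusted p = 0.00141) and with mivebresib (0.54, SE 0.10, adjusted p = 0.00225) but did not pass with quisinostat (0.16, SE 0.10, adjusted p = 0.192). The quisinostat value passed with scaling by library size alone (0.36, adjusted p = 0.0177), with upper-quartile scaling (0.29, adjusted p = 0.035) and without control replicate 1 (0.29, adjusted p = 0.0119). Scaling by library size alone moved the median of all tested genes to 0.20 with quisinostat, to 0.06 with romidepsin and to 0.03 with mivebresib, and upper-quartile scaling moved the quisinostat median to 0.13. Mivebresib lay above quisinostat by 0.37 (SE 0.10, adjusted p = 0.00983), a call lost with library size alone (0.20, adjusted p = 0.136) and without quisinostat replicate 2 (0.35, adjusted p = 0.0662). An antisense gene, ID2-AS1, overlaps 558 exon bases of ID2 and was not analysed here, and whether the counting used strand is not given in the sources used here.

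ID3 lies on chromosome 1 (23557918 to 23559794, minus strand). Its level was 145.8 and 116.5 CPM in control, 85.2 and 99.3 with romidepsin, 96.3 and 79.0 with quisinostat, and 88.2 and 75.4 with mivebresib. All 6 drug-treated libraries lay below both controls and overlapped among themselves. The log2 fold change was -0.51 (SE 0.15, adjusted p = 0.0316) with romidepsin, -0.58 (SE 0.15, adjusted p = 0.0101) with quisinostat and -0.68 (SE 0.15, adjusted p = 0.00561) with mivebresib. No pair of drugs was separated, with 95% intervals of the log2 difference of -0.41 to 0.26 for quisinostat over romidepsin, -0.51 to 0.16 for mivebresib over romidepsin and -0.44 to 0.24 for mivebresib over quisinostat. The romidepsin call was lost with library size alone (-0.44, adjusted p = 0.0552), upper-quartile scaling (-0.43, adjusted p = 0.0552) or only the 4 libraries compared (-0.49, adjusted p = 0.0823). It was also lost without control replicate 1 (-0.31, adjusted p = 0.0976), romidepsin replicate 1 (-0.40, adjusted p = 0.205) or romidepsin replicate 2 (-0.63, adjusted p = 0.0623). The quisinostat call was lost with library size alone (-0.38, adjusted p = 0.0579) and without quisinostat replicate 2 (-0.46, adjusted p = 0.0782), and the mivebresib call without mivebresib replicate 2 (-0.57, adjusted p = 0.0566).

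ID4, on chromosome 6 (19837386 to 19840684, plus strand), was measured at 5.03 and 3.47 CPM in control, 2.82 and 3.65 with romidepsin, 5.67 and 5.60 with quisinostat, and 3.55 and 4.35 with mivebresib. The quisinostat pair was the highest, and the remaining libraries overlapped. Its log2 fold changes were -0.40 (SE 0.22, adjusted p = 0.202) with romidepsin, 0.41 (SE 0.21, adjusted p = 0.132) with quisinostat and -0.11 (SE 0.22, adjusted p = 0.716) with mivebresib. They depended on single control libraries: the romidepsin value passed without control replicate 2 (-0.64, adjusted p = 0.0322), and the quisinostat value without control replicate 1 (0.70, adjusted p = 0.0195) and with library size alone (0.60, adjusted p = 0.0439). Quisinostat exceeded romidepsin by a log2 difference of 0.80 (SE 0.21, adjusted p = 0.0195), but not without romidepsin replicate 1 (0.62, adjusted p = 0.136), quisinostat replicate 1 (0.78, adjusted p = 0.0919) or quisinostat replicate 2 (0.77, adjusted p = 0.0904). The antisense gene AL022068.1, not analysed here, overlaps 869 exon bases of ID4.

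The inhibitory SMAD genes rose with different drugs. SMAD6, which mainly restrains BMP signalling, rose with quisinostat, whereas SMAD7, which restrains both BMP and TGF-beta signalling, rose with mivebresib.

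SMAD6 lies on chromosome 15 (66702228 to 66782848, plus strand). It stood at 31.1 and 32.4 CPM in control, 30.4 and 28.6 with romidepsin, 43.9 and 47.2 with quisinostat, and 29.7 and 28.1 with mivebresib. Both quisinostat libraries were above all 6 others, whose whole range was 28.1 to 32.4 CPM. SMAD6 rose 1.43-fold with quisinostat (log2 fold change 0.52, SE 0.08, adjusted p = 0.000904). Quisinostat also exceeded romidepsin at the same concentration by a log2 difference of 0.63 (SE 0.08, adjusted p = 0.000835), and mivebresib lay below quisinostat by -0.66 (SE 0.08, adjusted p = 0.000213). Romidepsin (-0.11, SE 0.08, adjusted p = 0.355) and mivebresib (-0.14, SE 0.08, adjusted p = 0.206) did not pass against control.

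The SMAD6 window is shown because it holds the SMAD palindrome GTCTAGAC, the classical sequence bound by SMAD3 and SMAD4 in vitro. It covers the 250 bases before the RefSeq start (GRCh38.p14, chr15:66701986-66702235, plus strand), and capitals mark the palindrome, 12 to 5 bases before the start.
SMAD6: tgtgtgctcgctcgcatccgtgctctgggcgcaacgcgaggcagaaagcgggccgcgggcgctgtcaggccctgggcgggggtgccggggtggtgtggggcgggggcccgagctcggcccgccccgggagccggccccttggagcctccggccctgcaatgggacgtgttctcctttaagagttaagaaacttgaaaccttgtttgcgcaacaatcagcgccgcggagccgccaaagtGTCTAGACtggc
This palindrome, the same on both strands, was found in 64 of 35116 windows, or 0.182%. Among the 8 members with an entry in the promoter table, SMAD6 held the only match to it. BMP2 and BMP7 had no entry.

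SMAD7 lies on chromosome 18 (48919853 to 48952052, minus strand). Its level was 16.4 and 15.7 CPM in control, 12.7 and 12.7 with romidepsin, 13.7 and 16.1 with quisinostat, and 25.5 and 25.6 with mivebresib. The mivebresib pair was above all other libraries, and the romidepsin pair was below them. SMAD7 rose 1.59-fold with mivebresib (log2 fold change 0.67, SE 0.10, adjusted p = 0.000786). Mivebresib exceeded romidepsin 2.01-fold (log2 difference 1.00, SE 0.10, adjusted p = 8.8e-05) and quisinostat 1.72-fold (0.78, SE 0.10, adjusted p = 0.000226). The fall with romidepsin was small (-0.34, SE 0.10, adjusted p = 0.0359) and lost under DESeq2 (-0.32, adjusted p = 0.078), under 4 other settings, and in 7 of 8 fits without 1 library. In those 7 fits, all except the fit without control replicate 2, the value ran from -0.34 to -0.28 and the adjusted p from 0.0522 to 0.156. Quisinostat did not pass (-0.11, SE 0.10, adjusted p = 0.368), and its sign turned with library size alone (0.09).

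BAMBI, on chromosome 10 (28677342 to 28682939, plus strand), encodes a receptor-like membrane protein without a kinase domain that dampens BMP and TGF-beta signals. It was measured at 87.7 and 83.3 CPM in control, 99.7 and 103.2 with romidepsin, 93.5 and 99.7 with quisinostat, and 105.2 and 87.1 with mivebresib. The libraries of both HDAC inhibitors lay above the controls, while replicate 2 of mivebresib lay between the 2 controls. None of the differences passed: the log2 fold changes were 0.25 (SE 0.10, adjusted p = 0.0958) with romidepsin, 0.18 (SE 0.10, adjusted p = 0.173) with quisinostat and 0.17 (SE 0.10, adjusted p = 0.204) with mivebresib. The values of the HDAC inhibitors passed with library size alone (0.32, adjusted p = 0.038, and 0.38, adjusted p = 0.0111) and with upper-quartile scaling (0.33, adjusted p = 0.0341, and 0.31, adjusted p = 0.0288), on which the median of all genes was also above 0.

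Compared directly, quisinostat and romidepsin differed in 4 of the 10 genes, mivebresib and romidepsin in 5, and mivebresib and quisinostat in 7. Over all tested genes 35.6%, 48.9% and 57.7% differed in these comparisons. With a log2 difference beyond 1.5 as well, 1, 2 and 3 of the 10 differed, against 5.59%, 9.22% and 14.3% of all tested genes. The 4 genes that separated the HDAC inhibitors at the same concentration (ID2, ID4, SMAD6 and BMP7) were all higher with quisinostat. This was also the more common direction over all tested genes, of which 21% were higher and 14.6% lower with quisinostat than with romidepsin. With a log2 difference beyond 1.5 as well, 816 were higher and 27 lower. ID1, ID2 and SMAD7 were higher with mivebresib than with either HDAC inhibitor, and BMP2 and BMP4 were lower.

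**Figure D4:**
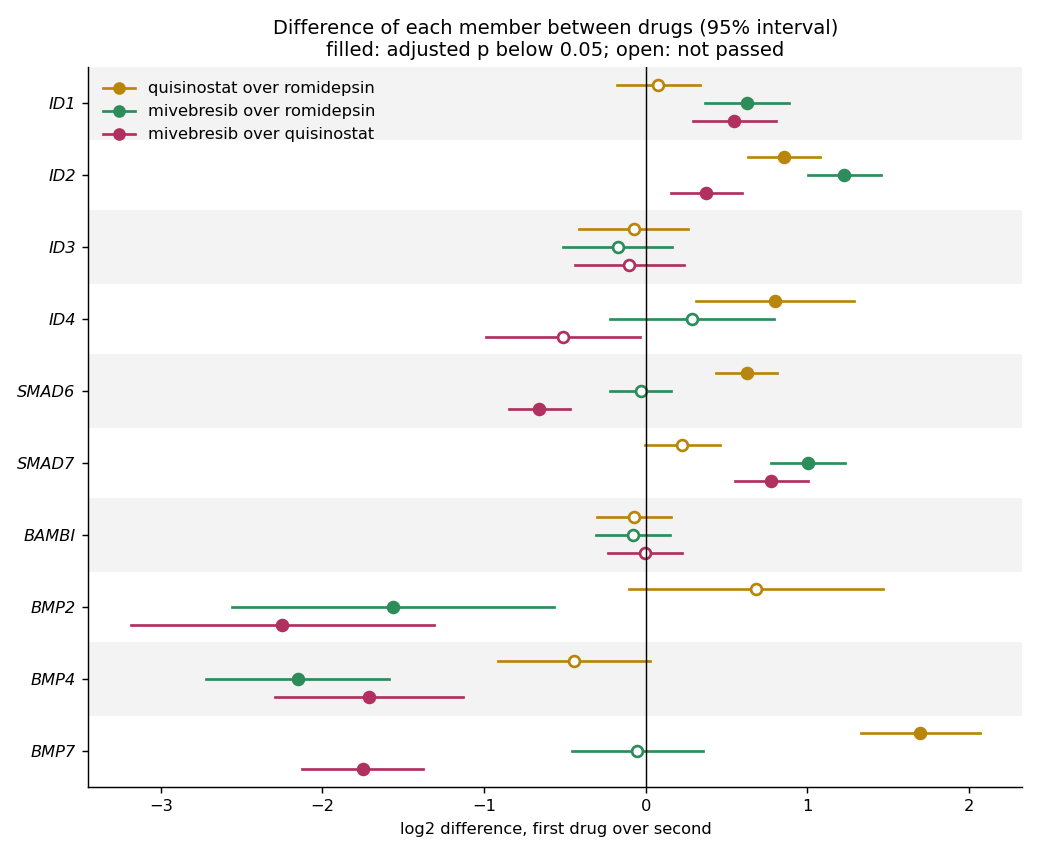
Log2 difference of each gene between pairs of drugs, with 95% intervals; filled points passed an adjusted p below 0.05. ID3 and BAMBI are open in all 3 comparisons, and the widest gaps are those of the ligand genes and of ID2 between mivebresib and romidepsin.

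The other genes of the pathway were taken from 9 lists of 111 genes, all present in the table, of which 89 were tested. With romidepsin 22 were higher and 16 lower, with quisinostat 34 and 21, and with mivebresib 22 and 31. As shares of the 89, 24.7% were higher and 18% lower with romidepsin, against 15.2% and 15.8% of all tested genes. With quisinostat the shares were 38.2% and 23.6% against 28.0% and 25.1%, and with mivebresib 24.7% and 34.8% against 22.2% and 24.1%. The counts of the single lists that follow stand against the same shares of all tested genes. Their median log2 fold change was -0.06, 0.07 and -0.15, respectively. The romidepsin count of 38 fell to 16 without romidepsin replicate 1 and to 21 without romidepsin replicate 2.

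Of 7 tested genes of other BMP and GDF ligands, 4 were higher and none lower with romidepsin, 6 higher and none lower with quisinostat, and 4 higher and 2 lower with mivebresib. The genes higher with quisinostat and mivebresib include BMP8A, which held 1 and 7 counts in control and passed the filter through drug-treated libraries. BMP6, which encodes a close relative of BMP7, was measured at 0.956 and 0.730 CPM in control, 4.15 and 4.13 with romidepsin, 10.9 and 10.4 with quisinostat, and 3.40 and 3.88 with mivebresib. Its log2 fold changes were 2.29 (SE 0.19, adjusted p = 0.000125), 3.65 (SE 0.17, adjusted p = 2.33e-06) and 2.10 (SE 0.19, adjusted p = 5.75e-05), in that order of drugs. As for BMP7, all drug-treated libraries exceeded the controls and the quisinostat pair was the highest. GDF6, a ligand gene of retinal and eye development, rose with quisinostat (2.30, SE 0.22, adjusted p = 5.53e-05) and fell with mivebresib (-1.67, SE 0.31, adjusted p = 0.00254). Its rise with romidepsin (0.99, SE 0.23, adjusted p = 0.0132) lost the call without romidepsin replicate 1 (0.79, adjusted p = 0.0998) and with only the 4 libraries compared (1.02, adjusted p = 0.0521).

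Among 10 tested receptors and co-receptors, 3 were higher and 1 lower with romidepsin, 4 higher and 1 lower with quisinostat, and 2 higher and 2 lower with mivebresib. NEO1, the gene of neogenin, a receptor for the BMP co-receptors of the RGM family, rose with quisinostat (2.34, SE 0.18, adjusted p = 1.62e-05) and with mivebresib (1.94, SE 0.18, adjusted p = 5.95e-05). It also rose with romidepsin (0.92, SE 0.18, adjusted p = 0.00597), a call lost without romidepsin replicate 1 (0.81, adjusted p = 0.0501). ACVR2A, a type II receptor gene shared by activins and BMPs, was higher with all 3 drugs, at 0.74 (SE 0.14, adjusted p = 0.00437), 0.63 (SE 0.14, adjusted p = 0.00441) and 0.60 (SE 0.14, adjusted p = 0.00691).

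Of the 6 SMAD transducers, 2 were lower with romidepsin, 4 lower and 1 higher with quisinostat, and 2 lower with mivebresib. SMAD4, the common partner, fell with quisinostat (-0.49, SE 0.07, adjusted p = 0.000695). Its romidepsin value (-0.36, SE 0.07, adjusted p = 0.00708) lost the call without romidepsin replicate 2 (-0.33, adjusted p = 0.0688) and with only the 4 libraries compared (-0.34, adjusted p = 0.0668). SMAD9, a receptor-activated SMAD of the BMP branch and itself a BMP target, rose with quisinostat (1.56, SE 0.19, adjusted p = 0.00022), while SMAD3, of the TGF-beta branch, fell (-1.01, SE 0.07, adjusted p = 1.31e-05). SMAD3 also fell with mivebresib (-0.47, SE 0.07, adjusted p = 0.000908). The other transducer called lower with mivebresib was SMAD9 (-0.63, SE 0.22, adjusted p = 0.0431), a call lost under DESeq2, limma-voom and further settings.

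Secreted antagonists bind BMP ligands outside the cell. The list of them also held genes with other or wider roles, among them FST, FSTL3, KCP and CRIM1. Of 12 tested, 1 was higher and 3 lower with romidepsin, 4 higher and 3 lower with quisinostat, and 2 higher and 4 lower with mivebresib. The 4 higher with quisinostat include VWC2, at 29 and 33 counts with quisinostat and 2 to 6 in the others. It passed the filter on low counts only through the quisinostat libraries. With mivebresib, FST and KCP were among the 4 lower and FSTL3 among the 2 higher. GREM1, the gene of gremlin, which captures BMP2, BMP4 and BMP7, stood at 117.4 and 161.0 CPM in control, 74.9 and 69.7 with romidepsin, 33.2 and 30.7 with quisinostat, and 18.2 and 19.0 with mivebresib. The groups did not overlap, and control was the highest. Its log2 fold changes were -0.95 (SE 0.14, adjusted p = 0.00158), -2.12 (SE 0.14, adjusted p = 9.44e-06) and -2.90 (SE 0.15, adjusted p = 4.17e-06). TWSG1, whose product binds BMPs together with chordin, rose with quisinostat (1.36, SE 0.11, adjusted p = 2.03e-05). It also rose with mivebresib (0.98, SE 0.11, adjusted p = 0.000161) and romidepsin (0.45, SE 0.11, adjusted p = 0.016).

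The 11 intracellular SMAD inhibitors and ubiquitin ligases were mixed: 1 was higher and 3 lower with romidepsin, 2 higher and 6 lower with quisinostat, and 5 higher and 3 lower with mivebresib. The 2 higher with quisinostat include ZNF423, at 12 counts in both quisinostat libraries and 0 to 3 in the others. It passed the filter on low counts only through the quisinostat libraries. TGIF1, a SMAD corepressor gene, rose with mivebresib (0.90, SE 0.10, adjusted p = 0.000185), and its relative TGIF2 fell (-1.27, SE 0.13, adjusted p = 9.69e-05). With both HDAC inhibitors TGIF1 moved the other way. It was lower with romidepsin (-0.50, SE 0.10, adjusted p = 0.00755), a call lost without romidepsin replicate 1 (-0.43, adjusted p = 0.078) and with only the 4 libraries compared (-0.48, adjusted p = 0.0518). It was also lower with quisinostat (-0.45, SE 0.10, adjusted p = 0.00603), a call lost with library size alone (-0.25, adjusted p = 0.0728). SKI, another corepressor gene, fell with quisinostat (-0.66, SE 0.09, adjusted p = 0.000295) and rose with mivebresib (0.79, SE 0.09, adjusted p = 0.000137). Its romidepsin value (-0.33, SE 0.09, adjusted p = 0.0198) lost the call without either romidepsin library (-0.40 and -0.27, adjusted p = 0.0583 and 0.139) or either quisinostat library (adjusted p = 0.0608 and 0.0614), and under 3 other settings.

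Among 9 tested genes of E proteins and other HLH partners, 2 were higher and 2 lower with romidepsin, 2 higher and 3 lower with quisinostat, and 1 higher and 4 lower with mivebresib. The E protein genes, named here for their role, include TCF3, which fell with romidepsin (-0.60, SE 0.08, adjusted p = 0.0013), quisinostat (-0.46, SE 0.08, adjusted p = 0.00183) and mivebresib (-0.60, SE 0.08, adjusted p = 0.000595). TCF12 fell with quisinostat (-0.58, SE 0.08, adjusted p = 0.000421) and mivebresib (-0.68, SE 0.08, adjusted p = 0.000212) and did not pass with romidepsin (-0.22, SE 0.08, adjusted p = 0.0624). The third, TCF4, never exceeded 12 counts in a library. ATOH8, an HLH gene that BMP signalling is known to induce, fell with mivebresib (-1.87, SE 0.11, adjusted p = 5.9e-06). TWIST1, which encodes a HLH factor of mesenchymal and neural crest cells, rose with all 3 drugs, at 0.65 (SE 0.12, adjusted p = 0.0051), 1.06 (SE 0.12, adjusted p = 0.000145) and 0.95 (SE 0.12, adjusted p = 0.000358).

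Of 14 tested target genes of BMP-SMAD signalling outside the 10 members, 4 were higher and 3 lower with romidepsin, 9 higher and 2 lower with quisinostat, and 4 higher and 8 lower with mivebresib, with medians of 0.02, 1.09 and -0.55. DLX3 (3.60, SE 0.18, adjusted p = 2.84e-06) and MSX2 (2.00, SE 0.25, adjusted p = 0.000266), both homeobox genes, led with quisinostat. DLX3 also rose with romidepsin (1.17, SE 0.21, adjusted p = 0.00437), while its lower value with mivebresib (-0.90, SE 0.28, adjusted p = 0.0263) lost the call without either control or either mivebresib library (-1.06 to -0.77), and under 3 other settings. HEY1, a repressor gene shared with Notch signalling, rose with romidepsin (1.13, SE 0.15, adjusted p = 0.00106) and quisinostat (1.37, SE 0.15, adjusted p = 0.000122) and fell with mivebresib (-1.07, SE 0.17, adjusted p = 0.00113). It was at 9.07 and 10.8 CPM in control, 21.4 and 21.9 with romidepsin, 25.7 and 25.6 with quisinostat, and 5.63 and 3.85 with mivebresib, so all groups were apart. With mivebresib the homeobox gene DLX5 fell (-2.90, SE 0.32, adjusted p = 0.000161) and UNC5B, a netrin receptor gene, rose (2.55, SE 0.16, adjusted p = 9.12e-06), as the latter did with quisinostat (1.69, SE 0.16, adjusted p = 5.61e-05). With the same drug, targets of the pathway moved in both directions, as ID1 and ID3 did with mivebresib.

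**Figure D5:**
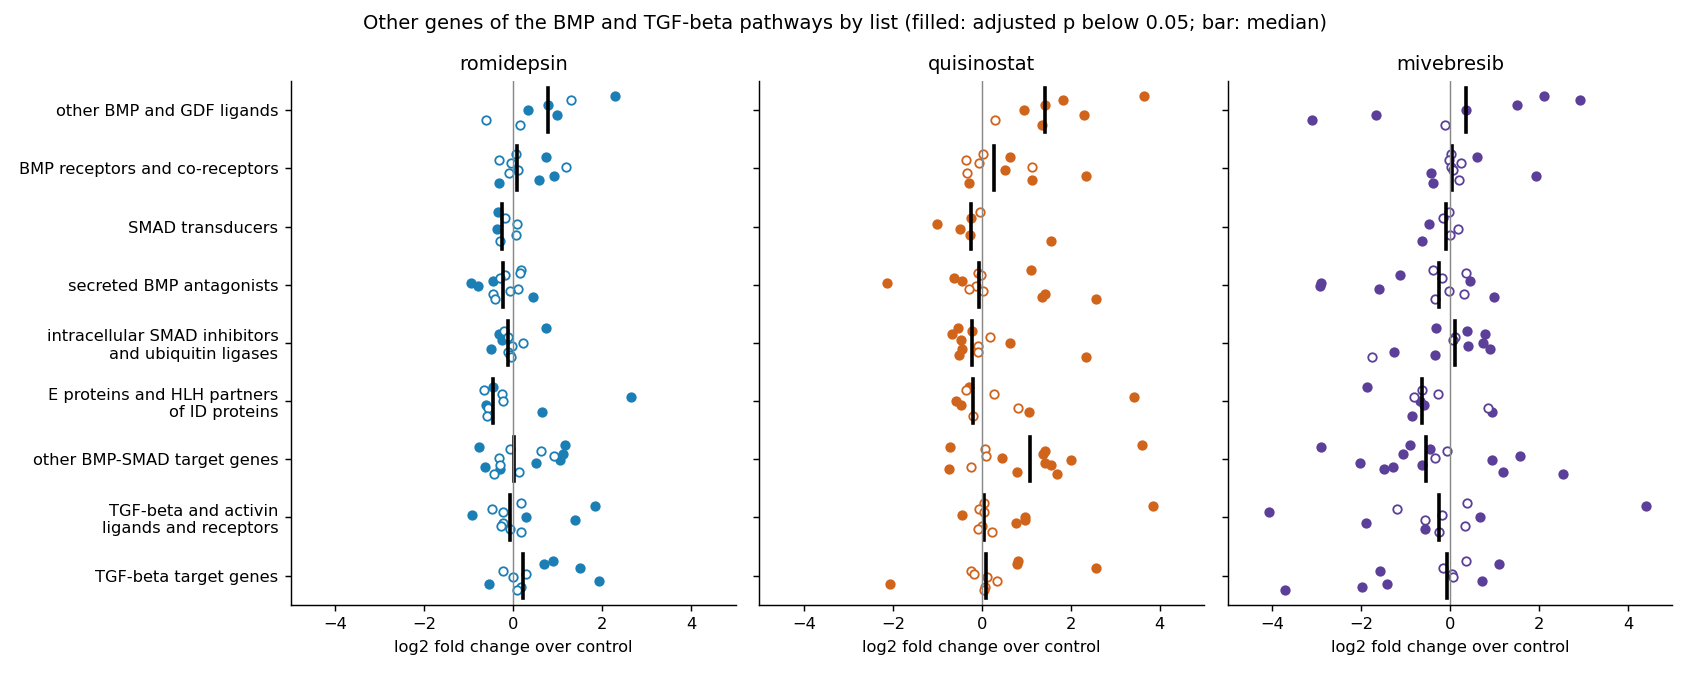
Log2 fold change over control of the tested genes of 9 pathway lists, with 1 panel a drug; filled points passed an adjusted p below 0.05 and bars are list medians. The lists of other ligands and of other targets have their highest medians with quisinostat, at 1.43 and 1.09.

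The genes whose pattern over the 8 libraries was most like a member's were sought among the 9834 tested genes whose log2 CPM averaged at least 3, by the root mean square difference of log2 CPM centred on control. The closest match to ID1 was MAP1LC3B (0.034), and those to ID3 were DTYMK (0.059) and S100A13 (0.065). PEX6 was closest to BAMBI (0.061), TRPV4 to SMAD6 (0.080) and EIF2B3 to SMAD7 (0.086). For ID2 the closest was RNF44 (0.142), for ID4 NDUFAF2 (0.147), for BMP7 MAPT (0.160), for BMP4 PLEKHA2 (0.161) and for BMP2 SLITRK4 (0.343). These distances are a description and were not tested.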

How the data were processed

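MP38 libraries were analysed in 4 groups of 2, with group and replicate from the sample labels. The authors deposited counts per gene symbol without normalization, made with BioJupies. hg38 is the build in the submitters' processing notes, and the aligner, annotation and use of strand in counting are not given in the sources used here. The authors' log10 and quantile-normalized tables were not used here. In edgeR 4.0.16 (R 4.3.3), filterByExpr by group removed genes with low counts, TMM factors scaled the libraries, and all 8 libraries entered 1 quasi-likelihood model with group as its single term and Benjamini-Hochberg adjustment, and drugs were compared as contrasts in that model. A gene was said to change where its adjusted p was below 0.05, and 1.5 on the log2 scale was a second threshold. The SE is the log2 fold change divided by the root of F. The members, gene lists and tests were chosen with earlier results of these data known. Named were all 10 members, up to 2 genes per list and drug with the largest change among those past the threshold whose log2 CPM averaged at least 0, the nearest matches of each member, and overlapping antisense genes. TCF3, TCF4 and TCF12, further drugs for some of the genes so named, and single cell markers fall outside this rule and were added after their values were seen. CCN2 and HJV were matched to their older symbols through RefSeq. Some genes that the rule names are not reported here.

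Loci and exon lengths are from GENCODE 29 on GRCh38, and promoter windows from RefSeq on GRCh38.p14. The edgeR, DESeq2 1.42.0 and limma 3.58.1 steps were tested on simulated data. Replicate pairs differed by more than sampling noise over genes with at least 20 counts, so 2 libraries per group, more than depth, limit precision. Alternatives were DESeq2, limma-voom, 3 other scalings, no filter on low counts, only the 4 libraries compared, a replicate block, and each library left out in turn.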

Additional observations from a re-analysis of the deposited data

How the results depend on the processing

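Leaving out 1 library leaves 1 in its group, which is then assumed to vary like the others. Without 1 library, the members changed by romidepsin numbered 3 to 7 and the pathway genes 16 to 43, and the latter numbered 19 in a fit of only the 4 libraries compared. With a log2 fold change beyond 1.5 as well, romidepsin changed 1 member and 5 of the 89 tested pathway genes, quisinostat 2 and 15, and mivebresib 1 and 20. Of all tested genes, 4.08%, 12.2% and 8.32% changed at that threshold, in the same order. Between drugs, 1 member differed for quisinostat and romidepsin, 2 for mivebresib and romidepsin and 3 for mivebresib and quisinostat (against 5.59%, 9.22% and 14.3% of all tested genes). Directions turned only for values that had not passed the test. Without 1 library these were, on the log2 scale, ID1 with romidepsin (-0.128 to 0.199) and quisinostat (-0.055 to 0.250), SMAD7 with quisinostat (-0.246 to 0.008), ID4 with mivebresib (-0.351 to 0.187), ID3 for quisinostat over romidepsin (-0.237 to 0.037) and mivebresib over quisinostat (-0.224 to 0.040), and BMP7 for mivebresib over romidepsin (-0.257 to 0.125). With library size alone SMAD7 with quisinostat was 0.086 and ID3 for quisinostat over romidepsin 0.055, and with upper-quartile scaling SMAD7 with quisinostat was 0.017. The cause was not tested.

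Groups share replicate numbers 1 and 2, but the deviations of same-numbered libraries correlated between -0.16 and 0.16, so the numbers were not taken to pair them. With a replicate block, romidepsin changed 6 members, quisinostat 5 and mivebresib 6, and the single call lost of those compared was SMAD9 with mivebresib (-0.63, adjusted p = 0.0565 in edgeR). This SMAD9 call was also lost under DESeq2 (-0.63), limma-voom (-0.65), upper-quartile scaling (-0.58) and only the 4 libraries compared (-0.62). Without 1 library its value ran from -0.91 to -0.40.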

Other observations

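The TGF-beta and activin branch, which shares SMAD4 and the inhibitory SMADs with the BMP branch, was examined through 2 further lists. Of 11 tested ligands and receptors, 3 were higher and 1 lower with romidepsin, 4 higher and 1 lower with quisinostat, and 2 higher and 3 lower with mivebresib. INHBA, the gene of an activin subunit, fell 16.9-fold with mivebresib (log2 fold change -4.08, SE 0.44, adjusted p = 0.000136 by edgeR). Its counts were 58 and 82 in control and 4 and 4 with mivebresib, so the size of this fall rests on very few treated reads. ACVR1C, a type I receptor gene of the activin and nodal branch, had 9 and 1 counts in control, 23 and 15 with romidepsin, 92 and 76 with quisinostat, and 114 and 100 with mivebresib. Like BMP2, ACVR1C passed the filter on low counts through its drug-treated libraries, and its sizes rest on very few control reads. It rose with quisinostat (3.86, SE 0.49, adjusted p = 0.000262) and mivebresib (4.40, SE 0.47, adjusted p = 0.000134), and these values were 3.04 and 3.58 without control replicate 2, and 6.03 and 6.57 without control replicate 1. Its romidepsin value (1.84, SE 0.61, adjusted p = 0.0496) lost the call without control replicate 2 (1.02, adjusted p = 0.124) and in 6 of the other 7 fits without 1 library. TGFB1 rose with quisinostat (0.97, SE 0.09, adjusted p = 3.78e-05). Of 10 target genes of TGF-beta, 4 were higher and 1 lower with romidepsin, 3 higher and 1 lower with quisinostat, and 2 higher and 4 lower with mivebresib. THBS1 (-3.70, SE 0.22, adjusted p = 8.3e-06) and TGFBI (-1.98, SE 0.19, adjusted p = 6.78e-05), both genes of matrix proteins, fell with mivebresib. TAGLN, a smooth muscle actin-binding gene, fell with quisinostat (-2.06, SE 0.12, adjusted p = 4.7e-06).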
